A study of Mus musculus with 2 samples.

Results

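The 150 autosomal genes described here had the highest aged over adult ratio of scaled reads between 2 mouse heart libraries. They were chosen by that ratio, among the 8051 genes on chromosomes 1 to 19 that were listed in both libraries and had 200 or more reads over both, of 21471 genes listed in both. The ratio itself is therefore a description, and no value from it supports anything. One library came from an adult female of 9 weeks and the other from an aged female of 78 weeks. Both mice were F1 hybrids of a C57BL/6J (BL6) mother and a CAST/EiJ (CAST) father. The labels give both mice the genotype C57BL/6JxCAST/EiJ, while their strain field names a mother heterozygous for a deleted Xist, and the study's methods call the mice used for nuclei BL6 × CAST. The aged values were deposited under a name with a different number of weeks, and the labelled age is the one given here. Both libraries are pools of the nuclei that kept the BL6 X chromosome active. In these pooled counts, cell types can be read only through marker genes. From all nuclei of these hearts, the study reported a lower share of cardiomyocytes and a higher share of fibroblasts in the aged heart. There was 1 library per age, so no test between ages was possible and the intervals below cover counting error alone. If duplicate reads were not collapsed, which is not known, these intervals are too narrow even for that error.

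Heart tissue is built from cardiomyocytes, fibroblasts, endothelial cells, and the mural cells of vessels, which are pericytes and smooth muscle cells, with macrophages among them. Nuclear RNA reports transcripts that are new or held in the nucleus, unspliced ones included. Because BL6 and CAST differ at many single-nucleotide polymorphisms (SNPs), a read that covers one can be assigned to the maternal BL6 or the paternal CAST copy, and an autosomal gene is usually read from both copies. The allelic ratio is the share of BL6 reads.

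Adult depth was 9747535 reads over SNPs and aged depth 5805807, and levels are given as RPM, reads scaled to 1000000 of these totals. One read was worth 0.103 RPM in the adult and 0.172 RPM in the aged library. All 14 cardiomyocyte markers passed the minimum of reads, with Ryr2, the calcium release channel, at 117632 adult and 80439 aged reads. Kcnj3, a potassium channel subunit of atrial cells, had 31650 adult and 2616 aged reads, while the other 8 atrial markers with reads summed to 267 RPM adult and 244 RPM aged. Mesothelial markers summed to 156 and 33.2 RPM and T and NK cell markers to 99.6 and 49.4 RPM. Whether such differences have a part in the values of the 150 genes was not tested.

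The ratios of the 150 genes ran from 2.85 to 19.3 with a median of 3.39, against a median of 1.12 over all 8051 genes, a shift of 0.16 on the log2 scale. Relative to that median the ratios ran from 2.55 for Kcnma1 to 17.3 for Gm32280. Of the 8051 genes, 655 (8.14%) had a ratio of 2 or more and 499 (6.2%) a ratio of 0.5 or less, so 56.8% of the genes past either limit were higher in the aged library. With library sizes corrected by edgeR's TMM factors these counts were 369 and 714, and 34.1% were higher. The 150 genes summed to 3367 RPM in the adult and 12754 RPM in the aged library, 3.79 times as much. The lower 95% limit of the ratio came from an exact binomial interval of the aged share of reads. It was above 2 for 150 of the 150 genes and for 333 (4.14%) of all 8051. The choice by ratio and the read minimum fixed this outcome for the 150, so it is no support for them. For 72 genes the limit also lay above the ratio of the gene ranked last, and over all 8051 genes the count was also 72. Only genes among the 150 could pass this limit, so this is no support either.

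The choice leaned on genes with few reads. Median reads over both libraries were 388.5 for the 150 genes and 697 for all 8051, and 54 of the 150 fell in the fifth of genes with 200 to 326 reads while 6 fell in the fifth with the most. With a minimum of 100 reads, 73 of the 150 genes stayed among the 150 highest, and with a minimum of 400 reads also 73. At the limit of the list, Vim, Grk6 and Kcnma1 were inside with ratios of 2.85, and Dennd2a, Ramp2 and Zfp36l2 were outside with 2.84, 2.83 and 2.83.

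**Figure D1:**
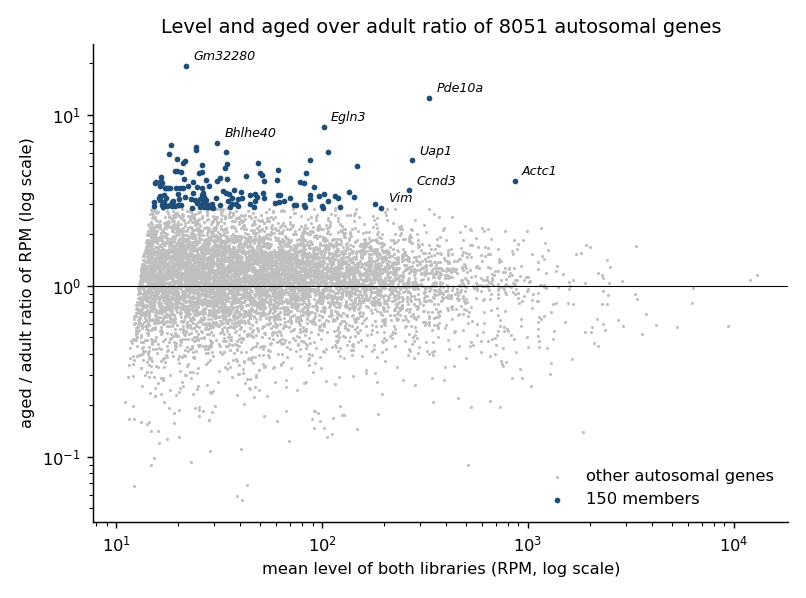
Each point is 1 of 8051 autosomal genes, with its mean level of both libraries in RPM (x axis, log scale) and its aged over adult ratio of RPM (y axis, log scale). The 150 members are dark blue, other genes are grey and the line marks a ratio of 1; most members lie at low levels, with Pde10a, Uap1, Ccnd3, Vim and Actc1 to the right.

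Promoter sequences from RefSeq (GRCm38) are shown first for the 4 members whose promoter holds a CArG box, the site of serum response factor, a regulator of actin and other contractile genes. Such a box was found in 4 of 147 promoters of the 106 members in the promoter table (2.72%), in 1.28% of 7869 promoters of all eligible genes, in 2.26% of those of the 150 genes with the lowest ratio and in 1.57% of all 31396 promoters. Each run covers 250 bases before to 50 after the start of the transcript, 5′ to 3′ on the gene's strand. The CArG box is in capitals, and in Actc1 the later run of capitals is the motif TATAAA. That motif begins at base 284 of the 300, after the annotated start of the transcript, so no role at that start is given to it.
Actc1, chr2:114052826-114053125, minus strand: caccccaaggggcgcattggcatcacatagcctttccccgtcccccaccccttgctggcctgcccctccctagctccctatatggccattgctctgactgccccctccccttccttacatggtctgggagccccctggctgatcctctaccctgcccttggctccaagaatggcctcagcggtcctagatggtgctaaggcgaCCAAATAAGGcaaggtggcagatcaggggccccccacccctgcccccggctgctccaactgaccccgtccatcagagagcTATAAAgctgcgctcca
Myl6, chr10:128492960-128493259, minus strand: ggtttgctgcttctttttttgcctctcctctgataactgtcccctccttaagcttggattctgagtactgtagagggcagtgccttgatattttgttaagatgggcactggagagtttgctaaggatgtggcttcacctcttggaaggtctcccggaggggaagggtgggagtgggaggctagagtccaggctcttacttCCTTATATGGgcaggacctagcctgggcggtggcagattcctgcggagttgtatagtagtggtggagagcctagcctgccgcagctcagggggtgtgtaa
Myadm, chr7:3292778-3293077, plus strand: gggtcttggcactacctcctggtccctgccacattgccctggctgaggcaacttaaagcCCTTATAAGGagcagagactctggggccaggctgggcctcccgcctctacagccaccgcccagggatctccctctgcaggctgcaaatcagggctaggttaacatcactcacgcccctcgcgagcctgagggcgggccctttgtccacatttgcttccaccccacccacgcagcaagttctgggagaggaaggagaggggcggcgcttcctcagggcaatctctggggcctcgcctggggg
Rasa4, chr5:136083666-136083965, plus strand: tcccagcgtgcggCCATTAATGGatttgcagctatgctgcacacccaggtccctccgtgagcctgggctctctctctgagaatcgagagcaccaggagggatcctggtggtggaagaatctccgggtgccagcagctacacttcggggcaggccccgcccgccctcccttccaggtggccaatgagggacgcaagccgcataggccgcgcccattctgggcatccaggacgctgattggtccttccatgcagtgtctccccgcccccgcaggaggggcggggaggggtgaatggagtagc

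Actc1 encodes the cardiac alpha actin of the sarcomere, Myl6 a light chain of smooth muscle and nonmuscle myosin, Myadm a membrane protein and Rasa4 a Ras GTPase-activating protein. A matched motif is a description of these letters and not a bound site. Of the other motifs searched on both strands, TATAAA was in 6.12% of members' and 7.6% of eligible promoters, the TEAD motif CATTCC in 13.6% and 12.4%, the AP-1 motif TGANTCA in 6.8% and 5.24%, the E-box CACGTG in 5.44% and 9.02%, and the GC box GGGCGG in 61.9% and 59.3%. Shares of the members' promoters were thus close to those of all eligible genes for most motifs, and each rests on few promoters except for the GC box.

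Among signalling genes, Pde10a, a phosphodiesterase that breaks down cyclic AMP and cyclic GMP, had 478 adult reads (259 BL6 and 219 CAST) and 3574 aged reads (1743 and 1831). Its level was 49.0 RPM in the adult and 616 RPM in the aged library, a ratio of 12.6 (95% interval 11.4 to 13.8), with 11.3 for BL6 and 14.04 for CAST reads. It lies at chr17:8525185-8986648 on the plus strand. Both copies were thus high in the aged library in nearly equal parts. Pde8b, another cyclic AMP phosphodiesterase, had 582 adult and 1219 aged reads and a ratio of 3.52, and Adcy7, an adenylyl cyclase that makes cyclic AMP, had a ratio of 3.26. Ret, the receptor tyrosine kinase for ligands of the glial-derived neurotrophic factor family, had 95 adult and 341 aged reads, a ratio of 6.03 (4.79 to 7.65). Il17d, a cytokine of the interleukin 17 family, had 47 and 187 reads (6.68), and the receptor subunit Il17ra had a ratio of 3.31. Plekhg2, an exchange factor of small GTPases, had 90 and 248 reads (4.63). The group of receptors and signal transduction held 23 of the 150 genes, with a median ratio of 3.51. The function groups used here were assigned after the values were seen.

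Enzymes of metabolism and oxygen use numbered 12 and had the highest group median, 5.00. Egln3, a prolyl hydroxylase that marks hypoxia-inducible factor for degradation and is itself induced by low oxygen, had 208 adult reads (100 BL6 and 108 CAST) and 1056 aged reads (580 and 476), a ratio of 8.52 (7.34 to 9.94). Cox4i2, an alternative subunit of cytochrome c oxidase, had 66 and 206 reads (5.24), and Cygb, the oxygen-binding cytoglobin, had a ratio of 3.76.
Uap1, which makes the sugar nucleotide UDP-N-acetylglucosamine, had 830 adult and 2669 aged reads, or 85.1 and 460 RPM, a ratio of 5.40 (4.99 to 5.84). Ugdh, which makes UDP-glucuronate, the other sugar nucleotide used for hyaluronan, had a ratio of 4.07. Ptgds, a prostaglandin D synthase, had 294 and 1059 reads (6.05), and Mthfd1l, a mitochondrial enzyme of folate metabolism, had 265 and 854 (5.41). Dpep1, a membrane dipeptidase, had a ratio of 4.77, and Phgdh, the entry enzyme of serine synthesis, one of 3.27. Galntl6, a member of the family that starts mucin-type glycosylation, had 66 adult and 243 aged reads (6.18).

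**Figure D2:**
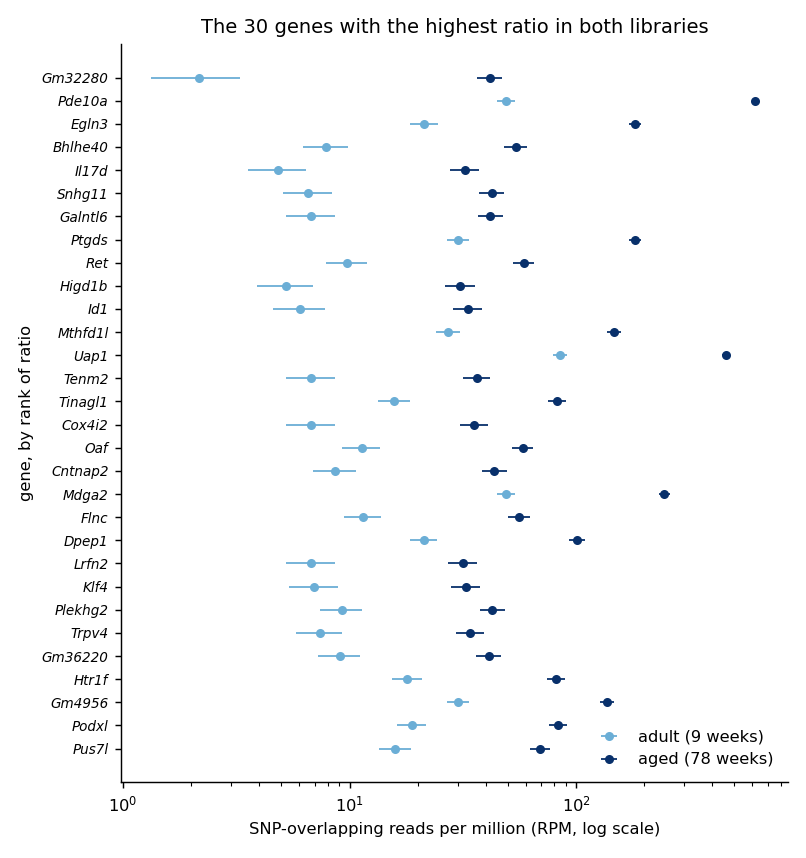
Levels in RPM (x axis, log scale) of the 30 genes with the highest ratio (y axis, in order of ratio) in the adult (light blue) and the aged (dark blue) library, with exact Poisson 95% intervals that cover counting error only. The intervals of the libraries are apart for each gene shown, which follows from the choice by ratio. Pde10a reaches the highest aged level, 616 RPM.

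Transcription factors and chromatin proteins numbered 13. Bhlhe40, a repressor of the circadian feedback loop, had 77 adult and 314 aged reads, a ratio of 6.85 (5.32 to 8.90). Id1, an inhibitor of basic helix-loop-helix factors and a target of BMP signals, had 59 and 193 reads (5.49), Klf4, a zinc finger factor of early responses, 68 and 189 (4.67), and Jund, a subunit of AP-1, 89 and 158 (2.98). These 4 genes were low in the adult library, none above 10 RPM, and each was higher in both copies in the aged library. Glis2, a Krüppel-like zinc finger factor, had 156 and 276 reads (2.97).

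Contractile and cytoskeletal genes numbered 14. Actc1 had the most reads of all 150 genes, 3286 adult (1446 BL6 and 1840 CAST) and 8042 aged (3996 and 4046), or 337 and 1385 RPM, a ratio of 4.11 (3.95 to 4.28). The other 13 cardiomyocyte markers had ratios from 0.46 for Mlip to 1.70 for Fhl2, and none of them was a member. Myh11, the smooth muscle myosin heavy chain, had 647 and 1278 reads (3.32), Flnc, an actin crosslinker of Z-discs, 112 and 325 (4.87), Vim, an intermediate filament of mesenchymal cells, 977 and 1661 (2.85), and Gas7, which binds actin, 616 and 1058 (2.88). Dmtn, which bundles actin, had 65 and 155 reads. Myl6 and Tpm4, a tropomyosin, had ratios of 3.12 and 3.26. Ccnd3, the cyclin D3 of the G1 phase, had 1111 and 2400 reads (3.63), while none of the 10 genes of the cell cycle list reached 200 reads, and these summed to 22.8 RPM adult and 22.7 RPM aged.

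Matrix and secreted proteins numbered 15, with a median ratio of 3.27. Tinagl1, a basement membrane protein, had 153 adult and 478 aged reads (5.25), Eln, elastin, 371 and 838 (3.79), and Loxl1, which crosslinks elastin, 187 and 361 (3.24). Over the 28 measured genes of the extracellular matrix list, 2 were members, 6 had a ratio of 2 or more and the median was 1.63. Without the 2 members the median was 1.57, against 1.12 for all genes. Oaf, a secreted protein of less known role, had 110 and 337 reads (5.14).

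A set of 7 genes are best known from neurons, as adhesion molecules or parts of synapses, with a median ratio of 4.68. Tenm2, a teneurin, had 66 adult and 211 aged reads (5.37), Cntnap2, of the neurexin superfamily, 84 and 253 (5.06), Mdga2, an adhesion molecule that binds neuroligins, 477 and 1425 (5.02), and Lrfn2, a synaptic adhesion protein, 66 and 184 (4.68). The neuron markers with reads summed to 3.08 RPM adult and 8.27 RPM aged, with Th among those in neither library, and Schwann cell markers to 218 and 257 RPM, so the levels of defining neuronal markers were near 0 at both ages. Their spans ran from 33442 bp for Cadm3 to 2241333 bp for Cntnap2, with a median of 921773 bp.

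Channels and transporters numbered 8. Trpv4, a cation channel that responds to stretch and warmth, had 72 adult and 197 aged reads (4.59), and Kcnma1, the large conductance potassium channel, 512 and 870 (2.85). Podxl, a sialomucin of vascular cell surfaces, had 183 and 483 reads (4.43). Receptor and vessel surface genes also included Plvap, of endothelial diaphragms, with 87 and 152 (2.93), and Higd1b, a gene typical of pericytes, with 51 and 179 (5.89; 4.30 to 8.21).

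Noncoding and Gm, Rik or LOC loci numbered 24. Gm32280 ranked first with 21 adult reads (11 BL6 and 10 CAST) and 242 aged reads (159 and 83), a ratio of 19.3 (12.4 to 31.8). It lies at chr9:48665954-48677241, inside Zbtb16, a transcription factor of the glucocorticoid list, which had 4896 and 6113 reads and a ratio of 2.10. Since the loci overlap and no strand of reads was used here, reads of the host cannot be told apart from those of Gm32280. Gm36220, of 399 bp, had 88 and 239 reads (4.56). Among 10 genes of RNA, ribosomes and transport into organelles, Snhg11, a host of small nucleolar RNAs, had 64 and 246 reads (6.45), and Pus7l, of the pseudouridine synthase family, 155 and 402 (4.35).

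Neighbouring members were fewer than neighbours among the 150 genes with the lowest ratio. Within 100 kb of each other lay 7 pairs with 14 members, compared with 19 clusters holding 41 genes in that other set. How many neighbours other sets of 150 eligible genes would hold was not counted. The pairs were Gsta3 with Gm4956, Cd34 with Gm16897, Grk6 with Pdlim7, Bvht with Carmn, Npdc1 with Ptgds, Id1 with Cox4i2, and Sult5a1 with Dpep1. Carmn, a noncoding RNA of smooth muscle that hosts a pair of microRNAs, had 880 adult and 1569 aged reads (2.99), and Bvht, a noncoding RNA of the cardiac lineage, 198 and 400 (3.39). Bvht and Carmn share 1608 bp and Cd34 and Gm16897 share 5534 bp, so their reads are not independent. The pairs Gsta3 (2.89) and Gm4956 (4.55), Grk6 (2.85) and Pdlim7 (4.12), Npdc1 (3.71) and Ptgds, Id1 and Cox4i2, and Sult5a1 (4.20) and Dpep1 do not overlap.

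Members were short. Their median span was 22554 bp against 40666 bp for all 8051 genes and 62371.5 bp for the 150 genes with the lowest ratio, and 35 of the 150 (23.3%) spanned under 10 kb against 9.03% of all. The median ratio of all genes went from 1.27 in the fifth of genes with the shortest span to 0.98 in the fifth with the longest, and from the shortest to the longest such set there were 64, 31, 18, 14 and 23 members. A span over 500 kb was also found in 7 members (4.67%) and in 2.05% of all genes. By RefSeq, 129 members (86.0%) were protein-coding and 16 (10.7%) were long noncoding RNAs, compared with 90.1% and 7.25% of all genes. Of the members, 60 (40.0%) overlapped another listed locus, 7 of them from inside it, and of all genes 41.3% overlapped one. Whether span has a part in the ratios was not tested.

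Both copies were higher in the aged library in 149 of the 150 genes, compared with 49.5% of all 8051 genes. The sum of the copies chose the genes, so at least 1 copy had to be higher. Both copies had a ratio of 2 or more in 146 genes, compared with 5.08% of all genes, and in 147 the lower 95% limit was above 1 for each copy, as it was in 28.7% of all genes. The 149 and the 146 include Htr1f, with 0 adult CAST reads set to 3, and A630001G21Rik, with 3 adult and 6 aged CAST reads. The median ratio was 3.44 for BL6 and 3.42 for CAST reads, which summed to 1796 RPM adult and 6939 RPM aged for BL6 and to 1570 and 5815 RPM for CAST. The 4 genes short of a ratio of 2 in 1 copy were Sult5a1, a sulfotransferase, with CAST reads of 13 adult and 6 aged (0.77), Pus7l with BL6 reads of 13 and 8 (1.03), Arhgap22, a GTPase-activating protein, with CAST reads of 51 and 53 (1.74), and Glis2 with CAST reads of 80 and 87 (1.83).

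**Figure D3:**
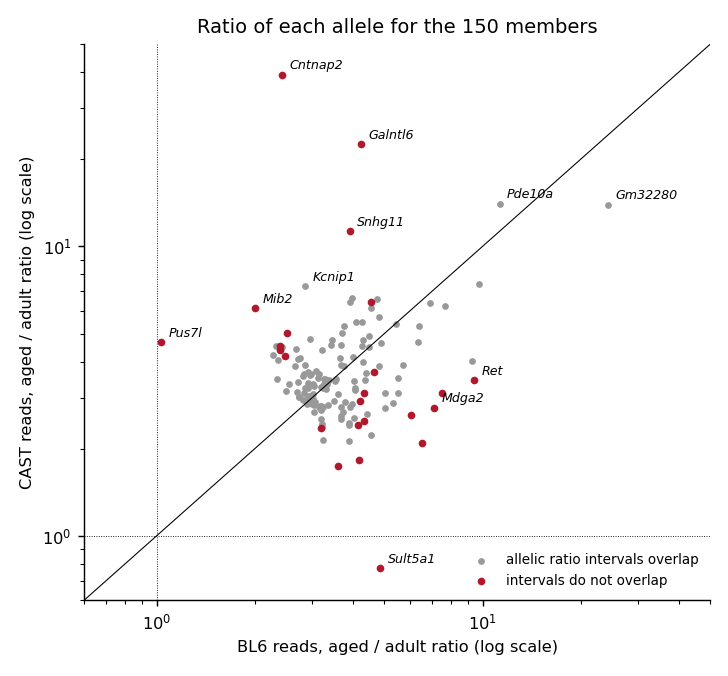
The aged over adult ratio of BL6 reads (x axis) and CAST reads (y axis), both on log scales, for the 150 genes; dotted lines mark a ratio of 1 and the solid line equal ratios. Genes whose allelic ratio intervals do not overlap between ages are red, and apart from Sult5a1 and Pus7l the points lie well above 1 on both axes. Htr1f is drawn with its 0 adult CAST reads set to 3. The CAST ratio of A630001G21Rik rests on 3 adult and 6 aged reads.

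The copies were also read apart, so that the counting error of the ratio that chose the genes is not in the ratio that is read. When 150 genes were chosen on BL6 reads alone, the median ratio of their CAST reads was 2.91, and the CAST ratio was above 1 in 146 and at 2 or more in 125. When they were chosen on CAST reads alone, the median BL6 ratio was 2.85, with 146 above 1 and 122 at 2 or more. Over all eligible genes the CAST ratio was above 1 in 59.0% and at 2 or more in 9.13%, and the BL6 ratio in 60.0% and 9.13%. The lists so chosen shared 112 and 100 genes with the 150 described. The minimum of 200 reads counted both copies, so the copy that was read still helped to set which genes could be chosen. With a minimum of 100 reads of the choosing copy alone, an alternative added after the data were seen, the CAST ratio was at 2 or more in 127 of 150 genes (9.31% of all 8282 that passed) and the BL6 ratio in 122 (8.9% of 7738). Both copies come from the same nuclei and library, so this bears on counting error and not on differences between mice.

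The allelic ratio of the 150 genes had a median of 0.539 adult and 0.552 aged. Over all autosomal reads the BL6 share was 53.4% and 53.8%. In 24 genes (16.0%) the exact 95% intervals of the allelic ratio did not overlap between ages, against 15.9% of all genes, a share near the background. The BL6 share was higher in the aged library in 14 of the 24 and lower in 10. Cntnap2 had adult reads of 78 BL6 and 6 CAST and aged reads of 113 and 140, an allelic ratio of 0.929 (95% interval 0.851 to 0.973) and 0.447 (0.384 to 0.51). Galntl6 had 59 BL6 and 7 CAST reads and then 149 and 94, an allelic ratio of 0.894 and 0.613. In both genes the CAST copy was nearly unread in the adult library and carried much of the aged level.
Snhg11 (0.656 and 0.398) and Mib2, a ubiquitin ligase of the Notch pathway (0.586 and 0.318), also had a lower BL6 share with age. Higher BL6 shares at the aged time point were found for Dmtn (0.431 and 0.703), Ret (0.432 and 0.674), Mdga2 (0.518 and 0.733), Tinagl1 (0.484 and 0.692), 1810011O10Rik (0.324 and 0.524) and Glis2 (0.487 and 0.685). Actc1 had an allelic ratio of 0.44 and 0.497.

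**Figure D4:**
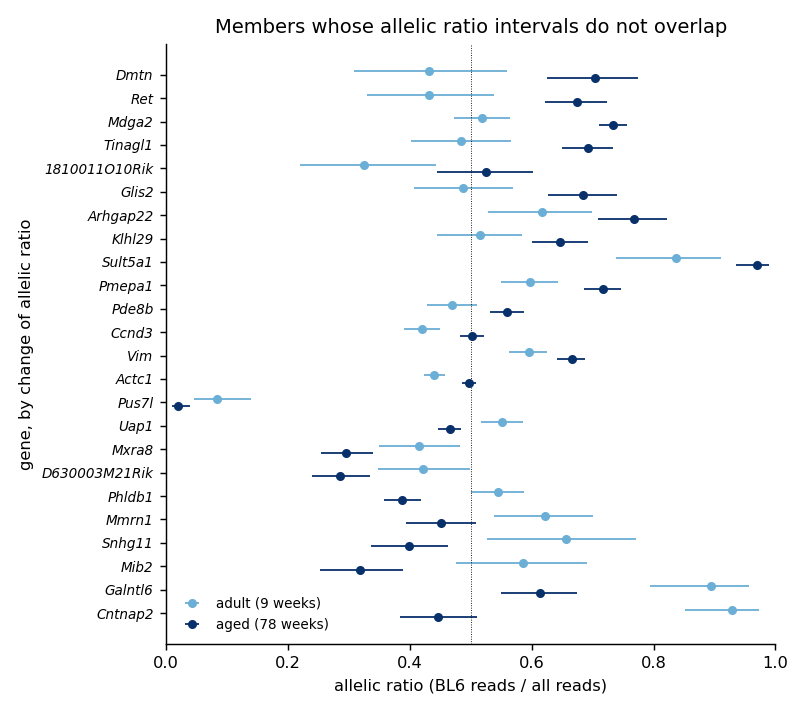
Allelic ratio (x axis, BL6 reads over all reads) of the 24 genes (y axis) with separate exact 95% intervals at the adult (light blue) and the aged (dark blue) time point; the dotted line marks equal copies. Cntnap2 and Galntl6 lie lowest, with a BL6 share near 0.9 in the adult library. In the aged library the share was 0.447 for Cntnap2 and 0.613 for Galntl6.

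Reads came almost from 1 copy at both ages in 4 members (2.67%) and in 0.733% of all genes, with 90% or more as the limit. Htr1f, a serotonin receptor, had adult reads of 175 BL6 and 0 CAST and aged reads of 467 and 8. The adult count of 0 allows up to 3 CAST reads, so no ratio of its CAST copy is given. Pus7l had 13 BL6 and 142 CAST reads and then 8 and 394. A630001G21Rik had 70 and 3 and then 139 and 6, and Kcnip1, a partner of potassium channels, 181 and 6 and then 308 and 26. In Htr1f, Kcnip1 and A630001G21Rik the BL6 copy carried the reads, and in Pus7l the CAST copy.

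Of the 150 genes, 15 (10.0%) were in a marker or function list and 135 in none, and of all 8051 genes 208 (2.58%) were in a list. The lists were written with earlier results of these data known, so the difference between these shares supports nothing. In cell type lists, the members included Actc1 (cardiomyocyte), Plvap (endocardial), Mmrn1 (lymphatic), Higd1b (pericyte) and Myh11 (smooth muscle). The endocardial list as a whole was lower in the aged library, with sums of 416 RPM adult and 279 RPM aged. Apart from Plvap, its 4 measured genes had ratios from 0.18 to 2.16 with a median of 1.08. In function lists, they were Bhlhe40 (clock), Jund and Klf4 (immediate early), Phgdh (integrated stress), Eln and Loxl1 (matrix), Fkbp5 (glucocorticoid), and Id1 and Smad7 (BMP and TGF beta). In a pool of nuclei, more nuclei of a type and more RNA per nucleus cannot be told apart.
Of the 7 measured pericyte markers, 2 were members and 2 of the other 5 had a ratio of 2 or more, a ratio that 8.14% of all genes reached. The 9 with reads summed to 179 RPM adult and 401 RPM aged. Pdgfrb, the defining receptor of mural cells, had 412 and 500 reads (2.04), Rgs5 195 and 271 (2.33), and Abcc9 242 and 123 (0.85), while Kcnj8 was in neither library. Of the smooth muscle markers apart from Myh11, 2 of 4 measured had a ratio of 2 or more, and the 7 with reads apart from Pln, which cardiomyocytes also express, summed to 162 and 412 RPM. Lymphatic markers apart from Mmrn1 had 2 of 4 at 2 or more, and the whole list summed to 180 and 312 RPM, with Ccl21a in neither library. Mmrn1, a protein of lymphatic endothelium and platelets, had 148 and 306 reads (3.47), while Prox1, a transcription factor of lymphatic endothelium, had 1095 and 732 (1.12). Prox1 alone made up 112 of the 180 RPM adult and 126 of the 312 RPM aged. The other measured lymphatic markers were Lyve1 (2.65), Reln (2.55) and Pdpn (1.69). Flt4, under the minimum of reads, had 54 and 141 (4.38). Macrophage markers had a median of 1.63, fibroblast markers 1.46, endothelial markers 1.26 and cardiomyocyte markers 1.01. The summed markers of mural cells were thus higher in the aged library beside the members Higd1b, Myh11 and Carmn, and their part in these values was not tested.

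Signalling lists with several members were the BMP and TGF beta list and the immediate early list. Apart from its members Id1 and Smad7, the former had 3 measured genes, with ratios from 1.27 to 2.62 and 2 of them at 2 or more, and apart from Jund and Klf4 the latter had 2, with ratios of 1.02 and 1.84. Smad7, an inhibitor of TGF beta signals, had 238 and 463 reads (3.27), and Smad6, an inhibitor of BMP signals that was no member, 595 and 928 (2.62). In the immediate early list, 14 of the 18 genes with reads stayed under 200 reads, so it rests on few genes. Fkbp5, a chaperone partner of steroid receptors, had 223 and 417 reads (3.14), while the glucocorticoid list had a median of 1.27 and Pdk4, another of its genes, 1784 and 283 (0.27). The clock list had a median of 1.17, and Bhlhe40 stood apart from it, with Bhlhe41 at 2.52 and Per2 at 2.02. The list of fatty acid use had a median of 0.59 and no member.

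**Figure D5:**
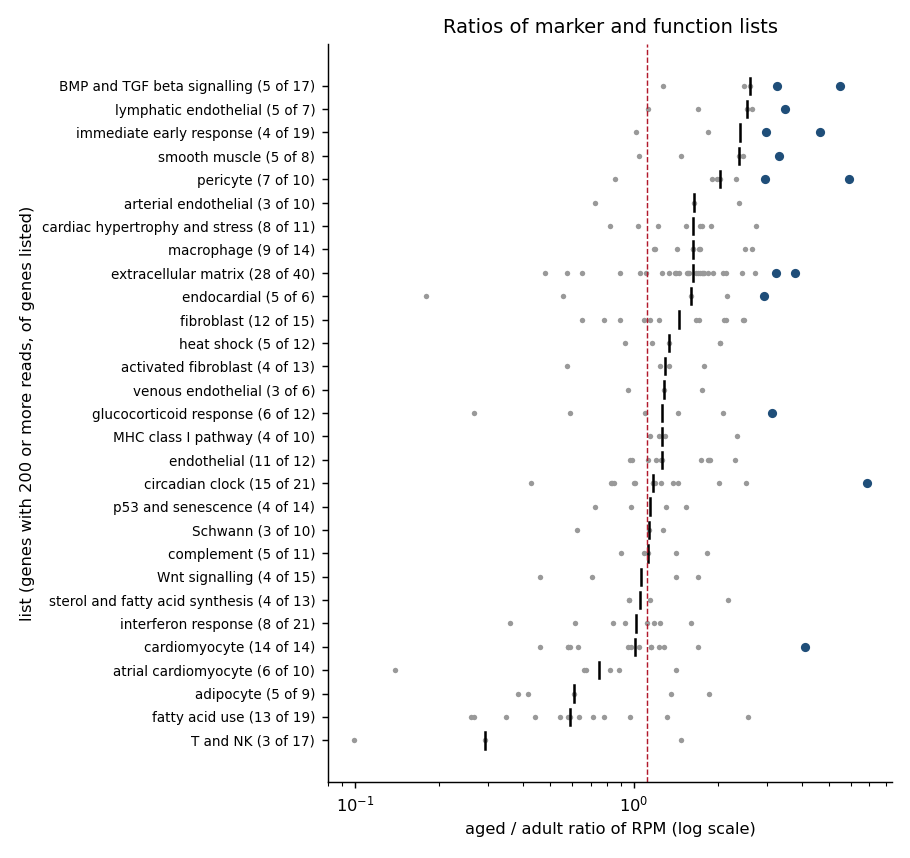
Aged over adult ratios (x axis, log scale) of the measured genes of each list with 3 or more such genes (y axis, measured of listed genes in brackets). Grey points are genes outside the 150 and blue points are members, black bars are list medians, members included, and the dashed red line is the median of all 8051 genes, 1.12. The BMP and TGF beta, lymphatic, immediate early, smooth muscle and pericyte lists have the highest medians, each from 4 to 7 genes. Members were chosen by their ratio and raise these medians. Without members they are 2.49, 2.12, 1.43, 1.93 and 1.98, in that order.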

How the data were processed

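Nuclei of 1 adult and 1 aged heart were sequenced with the 10x Genomics 3′ kit. Per the labels and the study's methods, the authors aligned reads with Cell Ranger 7.1.0 to mm10, pooled the nuclei with an active BL6 X chromosome at each age and ran Allelome.PRO2 with RefSeq genes. The deposited counts per locus are reads over SNPs, assigned to BL6 or CAST, and their total, not normalized. The deposited allelic ratio is a fraction rounded to 2 decimals, and ratios here were computed from the counts. The deposited score was not used. The study treated its expression matrices for ambient RNA with CellBender and for doublets with DoubletFinder. Whether the pooled nuclei were so filtered is not given in the sources used here, and with no values per nucleus no doublets were called here. Whether duplicate reads were collapsed is not given in the sources used here.

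Counts were scaled to the sum of each library. Ratios have exact binomial, levels exact Poisson and allelic ratios Clopper-Pearson 95% intervals (scipy 1.17.1), which cover counting error only. A copy with 0 reads was set to 3. Scripts were tested on simulated data. Coordinates are of mm10 and count from 1. TMM factors came from edgeR 4.0.16.

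The members and lists were chosen with earlier results of these data known. Genes were named by a rule: the 30 highest ratios, members of the lists, the 3 genes on each side of the limit, the 10 with the most reads, up to 10 with the largest shift of the allelic ratio among those with separate intervals, up to 10 with 90% or more of reads from 1 copy, and members within 100 kb of each other. Myl6, Myadm, Rasa4, Adcy7, Il17ra, Cygb, Ugdh, Tpm4, Cadm3, Arhgap22 and Zbtb16 fall outside it and were picked once values had been seen. Some genes that the rule names are not reported here. The alternatives were other read minimums, rankings, scalings, limits and interval levels, and the removal of overlapping loci. The calls under TMM and the read minimum on 1 copy were added after the data were seen.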

Additional observations from a re-analysis of the deposited data

Results flagged for a closer look

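LOC108168328 was listed in the aged library with 24 reads and not in the adult library, so it could not enter the ranking. It was noticed as a locus outside the compared genes that lies inside Pde10a, at chr17:8703925-8711406, and its reads cannot be told apart from those of Pde10a. With 3 adult reads as the limit that a count of 0 allows, no ratio is given for it.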

How the results depend on the processing

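Of 33 other settings tried, 29 left the counts within 1.5 times. With a minimum of 100 or of 400 reads, 73 of the 150 genes stayed in the list in either case. With 99% intervals, 14 in place of 24 genes had separate allelic ratio intervals. Scaled by TMM (added after the data were seen), 369 in place of 655 eligible genes had a ratio of 2 or more and 714 in place of 499 a ratio of 0.5 or less. Genes with both copies higher numbered from 146 to 150 in each list and scaling tried, with the lowest value at a minimum of 100 reads. Genes in a fixed list numbered from 14 to 16. Depth limits low genes: at 200 reads over both libraries a ratio near 3 has a lower limit near 2.18. No paired analysis was possible because each age had 1 library, and no library could be left out.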
